A study of Mus musculus with 5 samples.

Results

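The 9 genes described here encode receptors that steer T cells through tissues, namely Ccr4, Ccr6, Ccr9, Ccr10, Cxcr3, Cxcr4, Cxcr5, Cxcr6 and Gpr183. They were picked by symbol from the 48440 genes of the deposited table, and all 9 were found there and had enough counts to be tested. RNA was sequenced from CD4+CD25+ regulatory T cells (Tregs), which restrain immune responses, freshly isolated with magnetic beads from spleens of C57B/6 mice on a high-fat diet. There were 3 libraries of genotype CD4-KLF10-KO (KO), a loss of KLF10 specific to CD4 T cells, and 2 of genotype WT. KLF10 is a zinc-finger transcription factor induced by TGF-β. The sources used here give neither the driver of the deletion nor its extent within the gene, nor the age of the mice. They also do not tie each library to its own animal, so the p-values rest on the spread among 5 libraries, which may be technical.

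Chemokine receptors are membrane proteins with several passes through the membrane that signal through inhibitory G proteins and turn a gradient of chemokine into directed movement. Tregs use them to reach the place they act in: CXCR5 leads to B cell follicles, CXCR3 to sites of type 1 inflammation, CCR4 and CCR10 to skin, CCR6 and CCR9 to mucosal surfaces, and CXCR6 to tissues such as liver. CXCR4 binds CXCL12 and holds many kinds of blood cell in bone marrow and lymphoid tissue. GPR183, also called EBI2, is grouped with them for what it does, since it guides lymphocytes within the spleen, but its ligand is an oxysterol and not a chemokine.

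The preparations held Treg transcripts together with those of other cells. Total counts per library lay between 25622614 and 30521797. Klf10 had 408, 331 and 271 counts in KO libraries, against 668 and 588 counts in WT libraries, so its transcripts were lower in every KO library but not absent (adjusted p = 0.136 by edgeR and 0.0195 by DESeq2). Foxp3, the factor that defines Tregs, averaged 480 ± 7.72 CPM in KO and 527 ± 71.2 CPM in WT (counts per 1000000 reads after TMM scaling, SD, n = 3 and 2), and all 8 Treg markers were measured in every library. Of these, 2 were lower in every KO library, beside 17.4% of all genes, and 3 of the 8 had positive log2 changes. The 2 were Il2ra, which encodes CD25, with a log2 change of −0.42, and Lrrc32, which displays TGF-β on Tregs, with −0.57. Their adjusted p-values were 0.104 and 0.0745 by edgeR, and 0.0089 and 0.00047 by DESeq2. DESeq2 thus called 2 of the 8 lower, beside 1.51% of all genes. Scaling the libraries to 14 pan-T cell genes gave log2 changes of −0.15 for Il2ra and −0.29 for Lrrc32 (edgeR adjusted p = 0.354 and 0.136). The 12 B cell markers summed to 3303 to 3526 CPM in KO and 2856 to 4039 CPM in WT, beside 3197 to 3334 CPM in KO and 3656 to 4276 CPM in WT for 14 pan-T cell genes. Macrophage and monocyte markers summed to 1185 to 1506 CPM in KO and 516 to 690 CPM in WT, and 10 erythroid genes to 55770 to 91854 CPM in KO and 14665 to 20617 CPM in WT. B cells carry several of these receptors too, so the values below are those of the preparation, and a lower share of a cell type cannot be told apart from less RNA per cell.

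The promoter windows of 3 of the genes are printed because their levels lay differently between the groups, although none was called: Cxcr4 was higher and Cxcr6 lower in every KO library, and Gpr183 overlapped. RefSeq (GRCm38.p6) gave windows for 7 of the 9 genes. Each line is the 250 bases before the start, 5′ to 3′ on the strand of the gene. Capitals mark the motif GGGCGG (a GC box) or CACCC, letters of the GC-rich kind that Krüppel-like factors are known to bind, on either strand. No base lay in both motifs.
Cxcr4, chr1:128592300-128592549, minus strand: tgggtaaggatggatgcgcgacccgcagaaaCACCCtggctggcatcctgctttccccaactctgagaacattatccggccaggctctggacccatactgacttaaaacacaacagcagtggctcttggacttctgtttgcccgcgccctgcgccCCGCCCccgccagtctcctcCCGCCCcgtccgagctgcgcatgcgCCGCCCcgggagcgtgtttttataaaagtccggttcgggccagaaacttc
Cxcr6, chr9:123806227-123806476, plus strand: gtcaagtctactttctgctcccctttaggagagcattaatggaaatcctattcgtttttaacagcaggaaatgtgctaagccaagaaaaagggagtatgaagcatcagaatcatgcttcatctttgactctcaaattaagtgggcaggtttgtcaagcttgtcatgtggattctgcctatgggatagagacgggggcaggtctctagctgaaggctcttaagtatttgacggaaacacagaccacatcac
Gpr183, chr14:121965194-121965443, minus strand: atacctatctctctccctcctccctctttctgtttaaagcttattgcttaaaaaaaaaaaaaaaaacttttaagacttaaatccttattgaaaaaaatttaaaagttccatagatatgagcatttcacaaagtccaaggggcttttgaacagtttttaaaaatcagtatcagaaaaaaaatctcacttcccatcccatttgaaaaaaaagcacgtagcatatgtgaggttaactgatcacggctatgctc

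The windows differ in base composition. G and C made up 61.2% of the Cxcr4 window, 43.6% of the Cxcr6 window and 32.0% of the Gpr183 window, beside a median of 52.4% over 32851 windows of the same length. Cxcr4 had 3 matches to GGGCGG and 1 to CACCC, and the Cxcr6 and Gpr183 windows had 0 of either. Over all windows, 32.7% held GGGCGG and 52.0% held CACCC. Of the other windows, those of Ccr4 and Ccr9 each had 1 match to CACCC, and those of Ccr6 (2 starts) and Cxcr3 had 0 of either motif. A match is a string of letters and not a measured binding site.

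None of the 9 receptor genes differed between KO and WT at a false discovery rate of 0.05 over the 14460 genes tested (quasi-likelihood test of edgeR, Benjamini-Hochberg adjusted, with the smallest adjusted p = 0.218 for Cxcr4). Over all genes 0.284% were called. At an unadjusted p under 0.05 there were 2, beside 16.4% of all genes: Cxcr4 was higher in KO (10.7% of all genes were) and Cxcr6 lower (5.62%). DESeq2 called 0 of the 9, beside 7.35% of all genes. In 3 of the 9 the libraries of the groups did not overlap, beside 35.0% over all genes. Cxcr3 and Cxcr4 were higher in every KO library, beside 17.6% of all genes, and Cxcr6 was lower, beside 17.4%. Their median log2 change was −0.15, beside −0.01 over all genes tested. Counts of 2 and 3 in 9 are near these background shares and are no result about the receptors as a set.

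**Figure D1:**
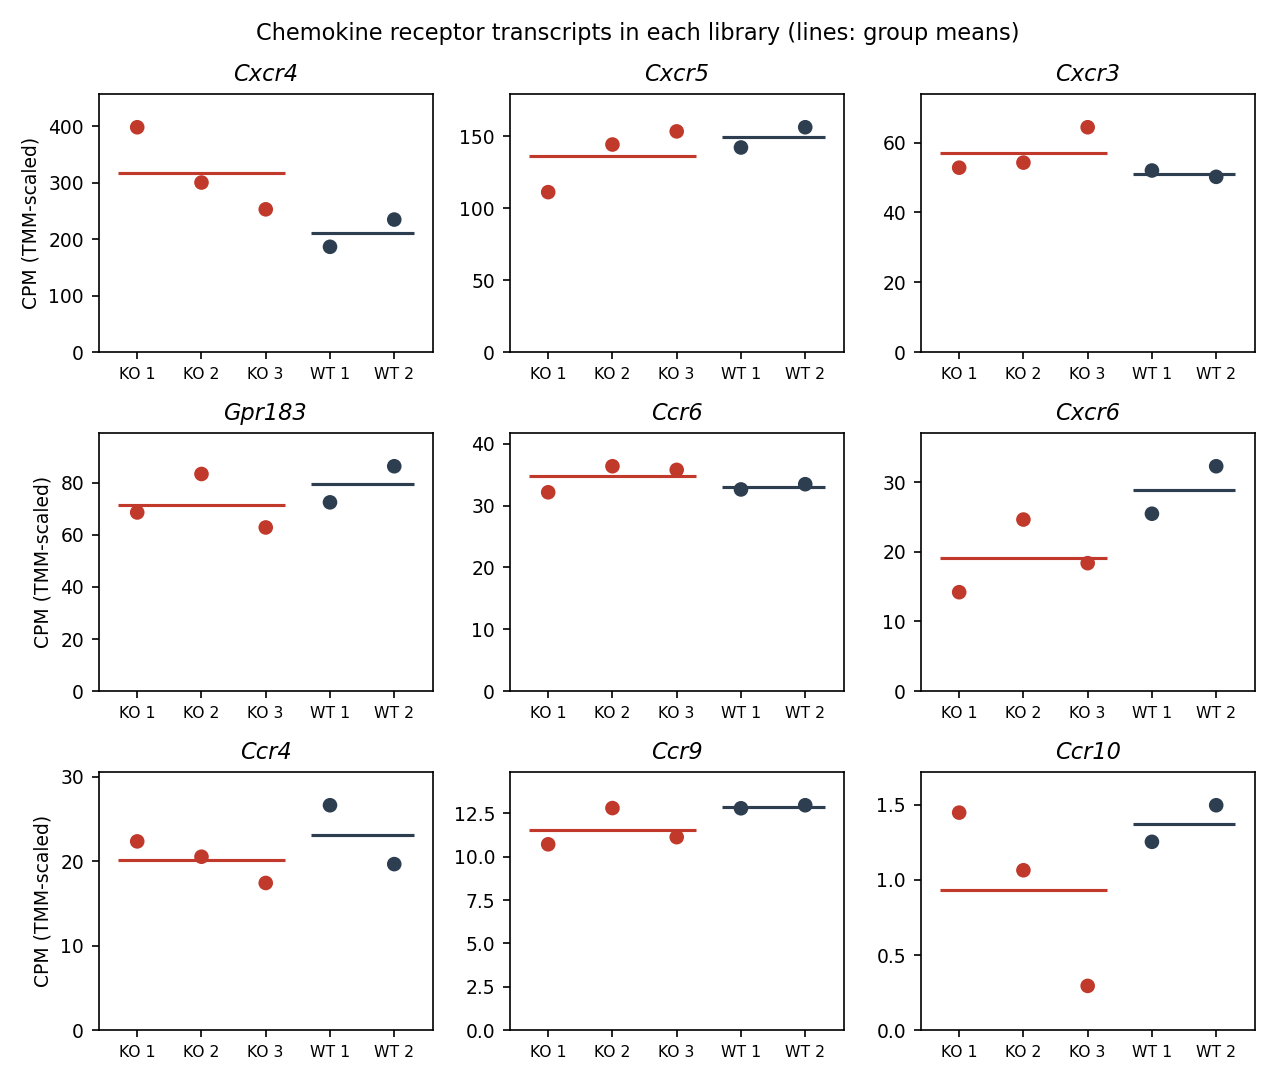
TMM-scaled CPM of each receptor gene in each library, KO in red and WT in dark blue, on axes that start at 0, with lines at the group means. Cxcr4 is higher in all 3 KO libraries (253 to 398 CPM) than in both WT libraries (187 and 235 CPM), and Cxcr6 is lower (14.2 to 24.6 against 25.5 and 32.3 CPM).

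Cxcr4, the receptor of CXCL12, was the most abundant of the 9 and had the smallest p. The gene (ENSMUSG00000045382, protein coding) spans 128588199 to 128592293 of chromosome 1 on the minus strand (GRCm38). It was measured at 398, 300.5 and 253 CPM in KO replicates 1, 2 and 3, against 187 and 235 CPM in WT replicates 1 and 2. Each KO value was above each WT value, although the gap between the lowest KO and the highest WT library was small beside the spread within KO. The means were 317 ± 74.1 CPM in KO and 211 ± 34.1 CPM in WT (SD, n = 3 and 2), a log2 change of 0.59 (SE 0.20, 95% interval 0.10 to 1.08), and the edgeR adjusted p of 0.218 missed the threshold. The adjusted p was 0.0533 by DESeq2 and 0.0565 by edgeR with the libraries scaled to the 14 pan-T cell genes. Leaving out KO replicate 1, its highest library, gave a log2 change of 0.40 (edgeR adjusted p = 0.271).

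Cxcr6, the receptor of CXCL16, pointed the other way. It lies on the plus strand of chromosome 9 from 123806477 to 123811754 (ENSMUSG00000048521). There were 363, 648 and 561 counts in KO libraries, against 772 and 841 counts in WT libraries, or 14.2, 24.6 and 18.4 CPM against 25.5 and 32.3 CPM. KO replicate 2 came close to WT replicate 1, and KO replicate 1 lay lowest. The log2 change was −0.60 (SE 0.23, 95% interval −1.15 to −0.04), and the edgeR adjusted p of 0.271 missed the threshold. Scaled to the pan-T cell genes the change was −0.35 and the groups overlapped. The gene lies inside Fyco1, which runs on the other strand and shares no exonic base with it in GENCODE M21. Since the strand setting of the counting is not given, reads from Fyco1 introns cannot be told apart from Cxcr6 reads there, and Fyco1 had a log2 change of 0.21 (edgeR adjusted p = 0.188).

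Because both genes are read in the same libraries, their ratio does not depend on how libraries are scaled. Cxcr4 had 28.1, 12.2 and 13.8 times the counts of Cxcr6 in KO libraries, against 7.33 and 7.28 times in WT libraries. The WT libraries nearly coincided, and every KO library lay above them. The mean log2 ratio was 4.07 in KO and 2.87 in WT. The pair was chosen after its values were seen, as the receptors with the largest changes in either direction, so the separation follows from that choice and is given with no test.

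**Figure D2:**
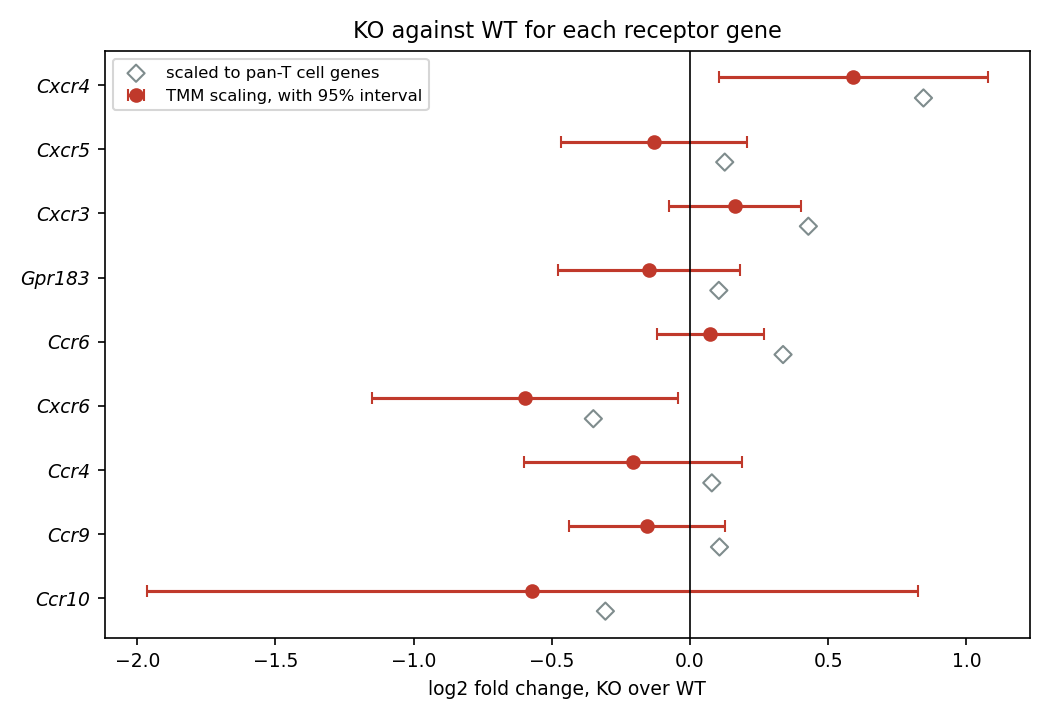
Log2 fold change of each receptor gene, KO over WT, with TMM scaling and its 95% interval (red) and with scaling to 14 pan-T cell genes (grey diamonds). The intervals of Cxcr4 (0.10 to 1.08) and Cxcr6 (−1.15 to −0.04) leave out 0 without adjustment for the number of genes, and pan-T cell scaling places every gene to the right of its TMM value.

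The scaling of the libraries decided the direction of several receptors. Pan-T cell genes had a median log2 change of −0.30, and scaling to them raised the log2 changes of all genes by a median of 0.27. With it, Ccr4, Ccr9, Cxcr5 and Gpr183 had small positive changes (0.08, 0.11, 0.13 and 0.10) in place of negative ones. Cxcr6 and Ccr10 stayed negative, while Ccr6, Cxcr3 and Cxcr4 stayed positive. Under that scaling edgeR called 0 of the 9 in either direction, beside 7.82% of all genes higher and 0.180% lower in KO, and Ccr6, Cxcr3 and Cxcr4 lay above WT in every KO library, beside 54.4% of all genes.

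Among the receptors of B cell zones, Cxcr5, the receptor of CXCL13, was at 111, 144 and 154 CPM in KO libraries, against 142 and 156 CPM in WT libraries. Only KO replicate 1 lay clearly below the rest (log2 change −0.13, SE 0.14, edgeR adjusted p = 0.702), and without it the change was 0.0029. The B cell gene Cd22 was also lowest in that library, at 268, 337 and 345 CPM in KO, against 317 and 406 CPM in WT. The B cell markers as a list were not. They summed to 3526, 3384 and 3303 CPM in KO replicates 1, 2 and 3, against 2856 and 4039 CPM in WT. The part of B cells in the Cxcr5 level was not tested. Cxcr5 shares 110 exonic bases, 3.30% of its own, with Bcl9l on the other strand in GENCODE M21. Bcl9l was at a mean of 100 CPM in KO and 116 CPM in WT. Gpr183 was at 68.5, 83.3 and 62.8 CPM in KO libraries, against 72.4 and 86.3 CPM in WT libraries. These groups overlapped (log2 change −0.15, SE 0.14, edgeR adjusted p = 0.649). Gpr183 (chromosome 14, 121952331 to 121965193, minus strand) lies within Ubac2 on the other strand, with 0 shared exonic bases in GENCODE M21. Since the strand setting is not given, reads from Ubac2 introns cannot be told apart from Gpr183 reads there. Ubac2 was at a mean of 79.0 CPM in KO and 91.0 CPM in WT, a log2 change of −0.21 (edgeR adjusted p = 0.152).

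Cxcr3, the receptor of CXCL9, CXCL10 and CXCL11 and a marker of type 1 responses, varied little. It was at 52.8, 54.3 and 64.4 CPM in KO libraries, against 52.0 and 50.2 CPM in WT libraries. The groups did not overlap, but the lowest KO and the highest WT library nearly met, and the log2 change was 0.16 (SE 0.10, 95% interval −0.08 to 0.40, edgeR adjusted p = 0.477). Ccr6, the receptor of CCL20, was the steadiest of the 9. Its 5 libraries lay between 32.2 and 36.4 CPM, with means of 34.8 ± 2.28 CPM in KO and 33.0 ± 0.599 CPM in WT, and its log2 change of 0.07 had a 95% interval of −0.12 to 0.27 (edgeR adjusted p = 0.709).

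The skin homing receptors Ccr4 and Ccr10 and the gut homing receptor Ccr9 had the lowest means of the 9 over the 5 libraries. Ccr4, the receptor of CCL17 and CCL22, was at 22.3, 20.5 and 17.4 CPM in KO libraries, against 26.6 and 19.7 CPM in WT libraries. WT replicate 1 was the highest and KO replicate 3 the lowest (log2 change −0.21, SE 0.16, edgeR adjusted p = 0.595), and without WT replicate 1 the change was 0.03. Ccr9, the receptor of CCL25, was at 10.7, 12.8 and 11.1 CPM in KO libraries, against 12.8 and 13.0 CPM in WT libraries, which overlapped (log2 change −0.16, SE 0.12, edgeR adjusted p = 0.566). Its deposited span (chromosome 9, 123678439 to 123783457, plus strand) overlaps 6 other genes in GENCODE M21, so some of its counts are uncertain. AC165425.1 on the other strand shares 1932 exonic bases with it, 18.8% of its own, and Gm17200 on the same strand shares 269. Of Slc6a20a and Lztfl1, both on the other strand, the first shares 22 and the second 0.

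Ccr10, the receptor of CCL27 and CCL28, had the fewest counts of the 9. It had 37, 28 and 9 counts in KO libraries, against 38 and 39 counts in WT libraries. KO replicate 3 alone was low, and the other 4 libraries lay between 28 and 39 counts. The log2 change of −0.57 had an SE of 0.58 and a 95% interval of −1.97 to 0.82 (edgeR adjusted p = 0.686), and without KO replicate 3 it was −0.12 with an SE of 0.31. The width of the interval thus rested in large part on that library. Ccr10 lies within Cntnap1 on the other strand, with 0 shared exonic bases in GENCODE M21. Since the strand setting is not given, reads from Cntnap1 introns cannot be told apart from Ccr10 reads there. Cntnap1 was at a mean of 1.25 CPM in KO and 0.933 CPM in WT, a log2 change of 0.41 (edgeR adjusted p = 0.615). Ccr10 itself averaged 0.936 CPM in KO and 1.38 CPM in WT.

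Compared per length, the receptors kept nearly the same order in every library. By RPKM (reads per kilobase of gene and per 1000000 reads) Cxcr4 led with a mean of 131 (range 90.0 to 183), followed by Cxcr5 at 43.5, Cxcr3 at 27.4, Gpr183 at 22.0, Ccr6 at 14.6, Cxcr6 at 10.6, Ccr4 at 6.61, Ccr9 at 2.22 and Ccr10 at 0.557. Ranges over the libraries overlapped between Cxcr3 and Gpr183, Ccr6 and Cxcr6, and Cxcr6 and Ccr4, and for these pairs the higher gene led in 4 of 5 libraries. For the other 5 neighbouring pairs the ranges did not overlap. Cxcr4 made up 63.3%, 52.2% and 48.4% of the summed RPKM of the 9 genes in KO libraries, against 41.2% and 45.1% in WT libraries. This share was higher in every KO library, which restates the higher Cxcr4 values and is no separate result.

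**Figure D3:**
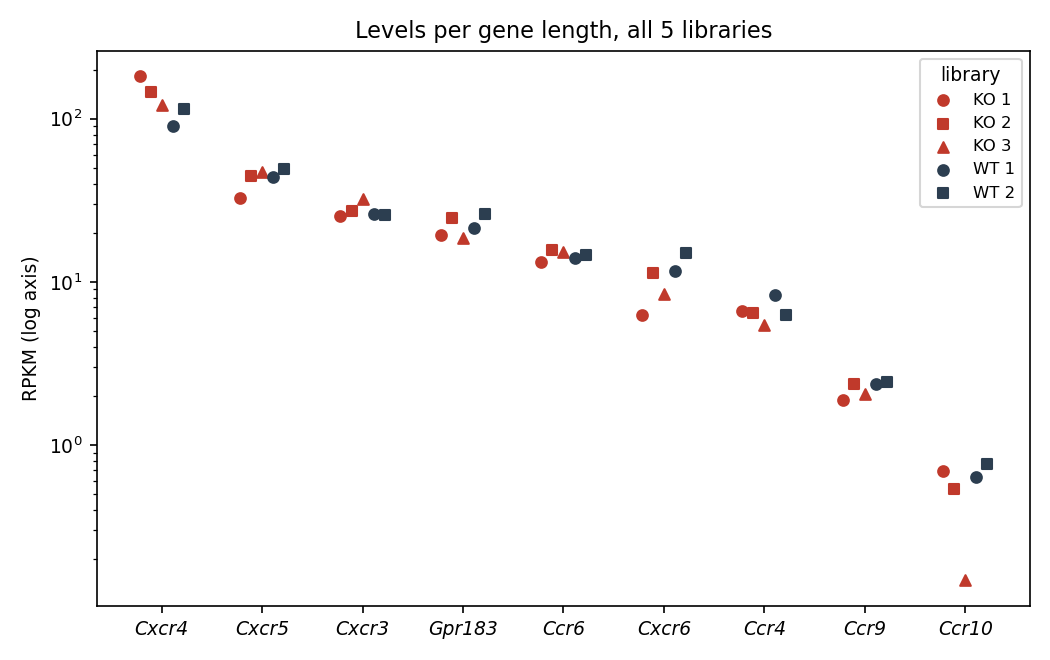
RPKM of each receptor gene in the 5 libraries on a log axis, genes from high to low mean, KO in red and WT in dark blue. Cxcr4 stands above the other 8 in all libraries (90.0 to 183 RPKM), and Ccr10 stays under 1 RPKM.

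The receptors differed from each other in their profiles over the libraries. The 3 with the largest changes by size were set against 135 genes of related and cell type lists, by the root mean square difference of log2 CPM centred on each gene's mean over the 5 libraries. Nearest to Cxcr4 were the B cell factor Ebf1 (0.0645), the fractalkine receptor Cx3cr1 (0.109) and Rgs2, a regulator of G protein signalling (0.128). Ebf1 was at 176, 121 and 98.0 CPM in KO libraries, against 75.2 and 97.5 CPM in WT libraries, so KO replicate 1 was highest and WT replicate 1 lowest, as for Cxcr4. The 12 B cell markers as a list had a median log2 change of 0.01, with 6 higher and 6 lower, and their part in the Cxcr4 level was not tested.

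Nearest to Cxcr6 were Klrd1 and the low-affinity IgE receptor gene Fcer2a (both 0.155) and Klrb1c (0.222). Klrd1 and Klrb1c encode receptors of natural killer cells, which also carry CXCR6. Klrb1c was at 2.39, 3.91 and 4.32 CPM in KO libraries, against 5.74 and 6.76 CPM in WT libraries (edgeR adjusted p = 0.202). It was lower in every KO library, as were 17.4% of all genes. Together, 8 genes that mark CD8 T or natural killer cells summed to 63.7 to 83.0 CPM in KO and 76.6 to 90.7 CPM in WT. Of these genes, 3 had higher and 5 lower levels in KO by log2 change, and their part in the Cxcr6 level was not tested. Nearest to Ccr10 were the neutrophil genes Retnlg (0.394), S100a9 (0.427) and S100a8 (0.433), all of which were also lowest in KO replicate 3. With 5 libraries these distances describe likeness only.

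**Figure D4:**
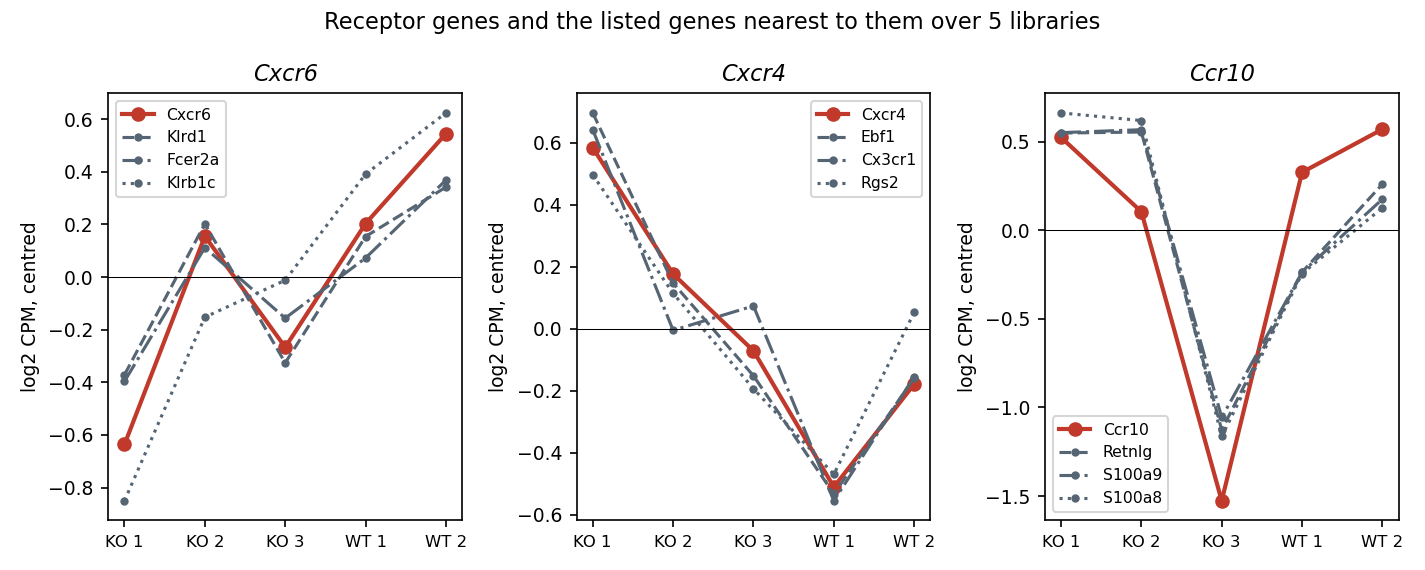
Log2 CPM centred on each gene's mean, in the 3 KO and 2 WT libraries, for Cxcr6, Cxcr4 and Ccr10 (red) and the 3 listed genes nearest to each (grey), with lines that only join the points of a gene. Cxcr4 is highest in KO replicate 1 together with Ebf1, where Cxcr6 is lowest together with Klrd1.

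Of 15 other chemokine receptors of the family, 13 had enough counts and 0 were called by edgeR over all genes. At an unadjusted p under 0.05, 6 of the 13 were higher in KO, beside 10.7% of all genes, and 0 were lower, beside 5.62%. Every KO library lay above WT for 7 of the 13, beside 17.6% of all genes, and below it for 1, beside 17.4%. Their median log2 change was 0.42, beside −0.01 over all genes. The most abundant was Ccr7, the receptor that brings T cells into lymphoid tissue, at 207 ± 20.2 CPM in KO and 239 ± 14.6 CPM in WT (log2 change −0.21, edgeR adjusted p = 0.348). Ccr8, a receptor of activated Tregs, was at 30.7 ± 2.36 CPM in KO and 22.9 ± 2.49 CPM in WT (edgeR adjusted p = 0.123), and Ccr2, which monocytes also carry, at 25.1 ± 4.58 CPM in KO and 30.7 ± 2.86 CPM in WT (edgeR adjusted p = 0.419). DESeq2 called 4 of them higher, Ccr3, Ccr8, Ccrl2 and Ackr1 (adjusted p from 1.1e-05 to 0.0292), beside 5.84% of all genes. With pan-T cell scaling edgeR called the same 4, beside 7.82%. Ackr1 is also found on erythroid cells and Ccrl2 on myeloid cells, whose markers were higher in KO, and the part of those cells was not tested.

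Ligands of the receptors were measured at low levels, the highest being Ccl22. Of 15 genes for ligands and for the enzymes that make or break down the ligand of GPR183, 10 had enough counts and 0 were called (median log2 change 0.12). At an unadjusted p under 0.05, 2 of the 10 were higher, beside 10.7% of all genes, and 1 was lower, beside 5.62%. Ccl22, a ligand of CCR4, was at 15.6 ± 3.36 CPM in KO and 18.4 ± 5.23 CPM in WT, and Cxcl16, the ligand of CXCR6, at 11.7 ± 3.43 CPM in KO and 9.10 ± 2.65 CPM in WT, with groups that overlapped for both. Cxcl10, a ligand of CXCR3, was at 11.7 ± 0.833 CPM in KO and 7.23 ± 0.883 CPM in WT, higher in every KO library (log2 change 0.69, SE 0.14, edgeR adjusted p = 0.0784, DESeq2 adjusted p = 0.0021). Cxcl12, the ligand of CXCR4, had 12, 14 and 6 counts in KO libraries, against 17 and 10 counts in WT libraries. These overlapped, and the log2 change of −0.27 had an SE of 0.51 (edgeR adjusted p = 0.846).

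Of 24 genes that carry or end the receptor signal, all tested, 0 were called by edgeR (median log2 change −0.06). At an unadjusted p under 0.05, 3 were higher in KO, beside 10.7% of all genes, and 4 lower, beside 5.62%. Every KO library lay above WT for 3 of the 24, beside 17.6% of all genes, and below it for 10, beside 17.4%. DESeq2 called 2 higher, beside 5.84% of all genes, and 3 lower, beside 1.51%. With pan-T cell scaling edgeR called 3 of the 24 higher, beside 7.82% of all genes, and 0 lower, beside 0.180%. The median log2 change of the list was then 0.20, beside 0.25 over all genes, so the lean to lower values depended on the scaling. Coro1a, a regulator of actin in T cell movement, was at 1533 ± 68.4 CPM in KO and 1807 ± 22.8 CPM in WT (log2 change −0.24, adjusted p = 0.151 by edgeR and 0.021 by DESeq2), and the change was 0.03 with pan-T cell scaling. Rac2, a small GTPase of leukocyte migration, was at 849 ± 28.9 CPM in KO and 917 ± 22.4 CPM in WT, and Gnai2, the inhibitory G protein subunit that these receptors use, at 680 ± 26.5 CPM in KO and 698 ± 61.7 CPM in WT (edgeR adjusted p = 0.439 and 0.862). Named after their values were seen, Arrb1 (β-arrestin) and Adrbk2, a kinase that marks receptors for arrest, had log2 changes of 0.74 and 0.70 (edgeR adjusted p = 0.124 and 0.0742) and were the 2 that DESeq2 called higher.

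**Figure D5:**
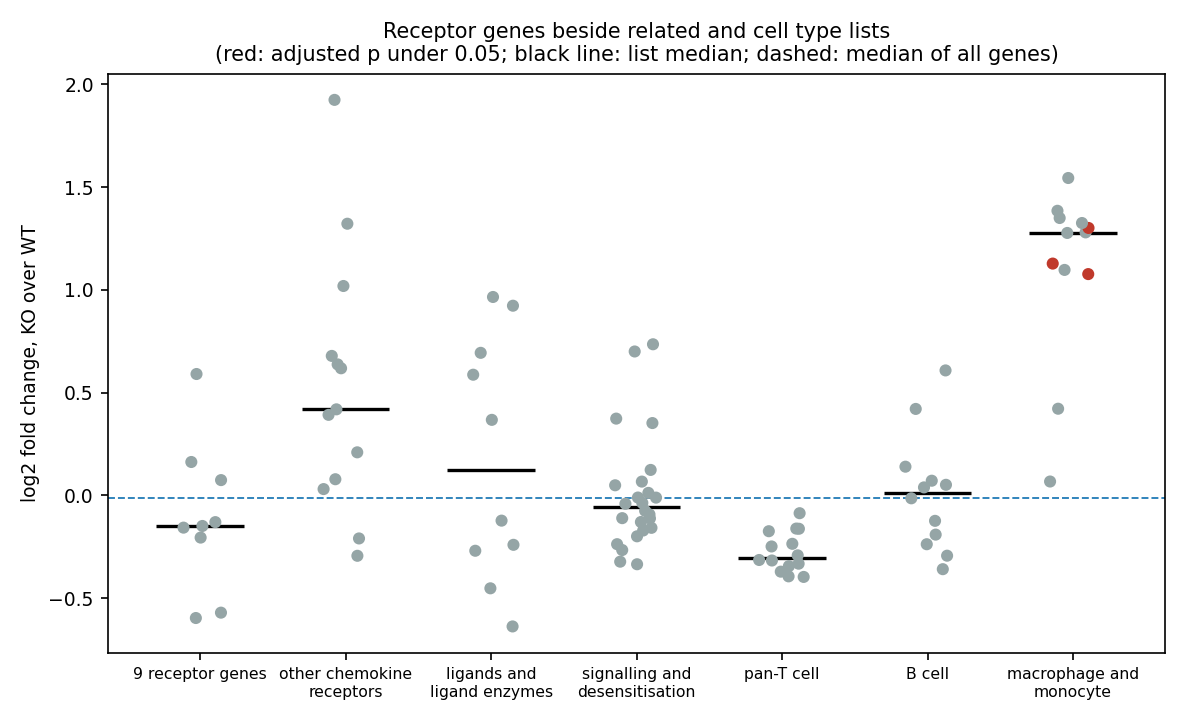
Log2 fold change, KO over WT, of each tested gene in the receptor list, in the 3 related lists and in 3 cell type lists, with black lines at the list medians and a dashed line at the median of all genes (−0.01). The 9 receptors lie between −0.60 and 0.59 with a median of −0.15, while the 12 macrophage and monocyte markers have a median of 1.28 and hold the 3 called genes, in red.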

How the data were processed

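RNA of 3 KO and 2 WT preparations was purified on columns and ribosomal RNA was depleted, per the labels' protocols. The submitters' processing notes name Trimmomatic 0.36, STAR 2.5.2b and the build GRCm38. How reads were counted, with which annotation and strand setting, is not given in the sources used here. The authors deposited whole-number counts per gene, from which all tests start. They also deposited RPKM values, used for levels between genes, and TPM values, which rescale RPKM within a library. A deposited column headed CPM sums to between 976872 and 1054093 and was treated as a score and not used.

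After filterByExpr and TMM scaling, KO was tested against WT with edgeR 4.0.16 in R 4.3.3 (glmQLFTest with no other covariate, Benjamini-Hochberg adjustment over 14460 genes). Each SE was taken as the absolute log2 change over the square root of F. Alternatives were DESeq2 1.42.0 (Wald test and size factors), scaling to 14 pan-T cell genes, other filters, robust estimation, a replicate block and leaving out each library. The test was tried on simulated counts. Within each group no library was a copy of another, since chi-square over its degrees of freedom was 16.5 to 39.1. Pairs of a KO and a WT library were not compared in this way. The biological coefficient of variation was 13.1%, and 1 CPM stands for 25.6 to 30.5 counts, so counting error is largest for Ccr10.

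All 9 identifiers were found in GENCODE M21 on the same chromosome. Coordinates are those of the deposited table. The members, lists and alternatives were chosen with earlier results of these data known. Named are all 9 members, Klf10, the most abundant genes of the receptor, ligand and signalling lists and the nearest genes of the 3 members with the largest changes. Other genes were named after their values were seen.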

Additional observations from a re-analysis of the deposited data

How the results depend on the processing

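None of the 9 receptor genes passed in any of the 13 alternatives. Cxcr3, Cxcr4, Ccr6, Cxcr6 and Ccr10 kept their direction in all of those run for them (Ccr10 was removed by the filter on a mean of 50 counts). The log2 change turned round with pan-T cell scaling for Ccr4 (0.079), Ccr9 (0.11), Cxcr5 (0.13) and Gpr183 (0.10). It also turned round for Ccr4 without WT replicate 1 and for Cxcr5 without KO replicate 1. With a library left out it ranged from −0.41 to 0.031 for Ccr4 and from −0.22 to 0.0029 for Cxcr5, and from 0.40 to 0.76 for Cxcr4 and −0.82 to −0.42 for Cxcr6. Over all genes, 41 calls became 1157 with pan-T cell scaling, 589 with no filter, 23 with a mean of at least 50 counts, 1022 with DESeq2 and 118 without antigen receptor, haemoglobin, mitochondrial and ribosomal RNA genes. With a library left out there were 1 to 334 (334 without KO replicate 1, 1 without KO replicate 2, 11 without KO replicate 3, 45 without WT replicate 1 and 3 without WT replicate 2). Calls in the related lists went to 9 with pan-T cell scaling, 4 with no filter and 10 with DESeq2, and to 0 or 1 with a library left out, a count added after seeing the data. The cause was not tested. With the replicate number as a block there were 32 calls over all genes and 0 among the receptors. Deviations of same-numbered libraries from their group means correlated at −0.00014 and 0.06, which shows no sign of pairing. With 2 WT libraries, 1 deviation is the other with its sign reversed, and KO replicate 3 has no partner. The 2 values are thus not separate checks and cannot settle whether the libraries were paired. The order per length was the same for all 9 genes by TPM and by CPM per kilobase. TPM rescales RPKM within a library, and the lengths behind CPM per kilobase were taken from the deposited RPKM. The same order was therefore built in and does not test the lengths. Among the receptors depth limits Ccr10 most, with 9 to 39 counts.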

Other observations

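Ccr9 and Cxcr6 lie beside other chemokine receptor genes on chromosome 9, and those compared here pointed in different directions. Ccr9, Cxcr6, Xcr1, Ccr1, Ccr3 and Ccr2 had log2 changes, KO over WT, of −0.16, −0.60, 0.68, 0.03, 1.32 and −0.29, with edgeR adjusted p-values from 0.0723 for Ccr3 to 0.971 for Ccr1. Xcr1, a receptor of cross-presenting dendritic cells, had 48, 61 and 79 counts in KO libraries, against 36 and 43 counts in WT libraries. Each KO count of Xcr1 was above both WT counts, and Ccr1 overlapped between the groups.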
